A study of Mus musculus with 12 samples.

Results

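The mitochondrial carrier family Slc25 comprises mainly transporters that move metabolites, nucleotides, cofactors and ions across the inner mitochondrial membrane. Members were taken as the protein-coding genes of the mouse GENCODE M21 annotation whose symbol starts with Slc25a. The rule gave 47 genes among 55401 gene identifiers in the deposited tables, and no expression value entered it. Of the 47, 40 passed the filter on low counts and were among the 16426 genes tested. The other 7 were close to silent in all libraries: over the 12 libraries together, Slc25a2 had 59 counts, Slc25a43 46, Slc25a48 10, Slc25a41 6, Slc25a54 3, Slc25a31 2 and Slc25a21 1.

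Bulk RNA-seq was made from OT-I T cells, CD8 T cells of 1 transgenic T cell receptor specific for an ovalbumin peptide, in 4 states with 3 libraries each. Day 14 and day 4 cells, both called exhausted in the labels, were CD44+ OT-I cells sorted from B78ChOVA melanomas, a mouse melanoma line that carries mCherry and ovalbumin, either 14 or 4 days after they had been transferred to C57BL/6J hosts, for which no depletion of their own immune cells is recorded. Effector cells were OT-I cells stimulated with antigen in culture for 5 days. Naive cells (day 0) were isolated directly from the lymph nodes of tumour-free OT-I animals. All groups share the OT-I genotype and no other treatment is recorded. The effector group is a culture, and the tumour groups were selected on CD44 while no such gate is described for naive cells. The labels do not say whether the libraries of a group came from separate animals or cultures, so p-values measure the spread between these libraries, which may be technical.

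Most carriers are small proteins built from repeated membrane-spanning modules, are encoded in the nucleus, and exchange a substrate on one side of the inner membrane for another on the other side. The phosphate carrier and the ADP/ATP carriers supply ATP synthase with its substrates and export ATP. The citrate, oxoglutarate and aspartate-glutamate carriers move carbon and reducing equivalents for lipid synthesis and for the malate-aspartate shuttle, and other members carry cofactors, amino acids or iron. In T cells, activation is known to raise mitochondrial mass and metabolite exchange, and tumour-infiltrating exhausted T cells are known for altered mitochondria.

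Gene counts per library ranged from 11937053 to 17094006. Marker sums of melanoma, of macrophages and monocytes and of dendritic cells were higher in every tumour library than in every effector and naive one. Those of B cells and of endothelium, the latter mostly Pecam1, were lower. The sum of 9 melanoma markers, all 9 of them tested, was 2050, 866 and 511 CPM (reads of a gene relative to the TMM-adjusted library size) in day 14 libraries and 1310, 1190 and 877 CPM in day 4 libraries, against 41.5 to 44.1 CPM in effector libraries and 26.9 to 34.2 CPM in naive ones. In those 6 libraries Tyrp1, a melanosome enzyme, was at 0 in 5 and at 0.153 CPM in the other. The sum of 10 macrophage and monocyte markers, all tested, was 66.8 to 120 CPM at day 14 and 64.7 to 132 CPM at day 4, against 5.34 to 9.63 CPM in effector and 14.1 to 27.3 CPM in naive cells. Apoe was its largest part in every tumour library, at 31.1 to 65.2 CPM. Apoe, Cd68 and Ms4a7 were higher in every tumour library than in every other one. Mrc1, Csf1r, Lyz2, Adgre1, C1qa, C1qb and C1qc overlapped naive libraries. Mrc1 was at 0.733 and 0.661 CPM in day 4 libraries 1 and 2, against 2.81 and 3.82 CPM in naive libraries 1 and 2. The sum of 5 dendritic cell markers, 4 of them tested, was 30.8 to 48.9 CPM at day 14 and 34.3 to 52.8 CPM at day 4, against 7.84 to 17 CPM in effector and 4.59 to 5.81 CPM in naive cells. Zbtb46 was its largest part in every tumour library, at 16.1 to 44.4 CPM. Zbtb46 and Xcr1 were higher in every tumour library than in every other one, while Flt3, Clec9a and Itgax overlapped. Itgax was at 9.98 CPM in effector library 2, against 1.88 to 8.78 CPM in tumour libraries. For 5 B cell markers, 4 of them tested, it was 1.53 to 4.62 CPM at day 14 and 3.74 to 6.73 CPM at day 4, against 8.34 to 13.4 CPM in effector and 18.1 to 21.3 CPM in naive cells. For 4 endothelial markers, 1 of them tested, it was 41.7 to 56.8 CPM at day 14 and 62.1 to 80.8 CPM at day 4, against 177 to 187 CPM in effector and 178 to 198 CPM in naive cells. Pecam1 made up most of it, at 41.2 to 56 CPM at day 14 and 178 to 198 CPM in naive cells. In day 14 library 1, Kdr, Cdh5 and Emcn were at 3.76, 2.18 and 0.792 CPM. They were at most 0.353 CPM in the other tumour libraries and 0.383 CPM in effector and naive ones. The sum of 6 T cell markers, all tested, was 3370 to 3520 CPM at day 14 and 2480 to 2930 CPM at day 4, against 4460 to 4900 CPM in effector and 3790 to 4220 CPM in naive cells. The T cell markers did not move alike between day 14 and naive cells. Cd8b1 was at 361 to 409 CPM against 861 to 958 CPM and Lck at 362 to 426 CPM against 498 to 598 CPM. Cd8a was at 1300 to 1330 CPM against 1140 to 1170 CPM and Cd3g at 418 to 478 CPM against 275 to 388 CPM. Cd2 and Cd3e overlapped. In such bulk samples fewer cells of a type and less RNA per cell cannot be told apart. The melanoma sum was 4.01 times as high in day 14 library 1 as in day 14 library 3. Over the 40 tested members this ratio between the same libraries ranged from 0.599 (Slc25a26) to 2 (Slc25a47). Among members higher in all 4 comparisons of a tumour group with naive or effector cells, it was 1.87 for Slc25a34, 1.67 for Slc25a39, 1.63 for Slc25a13, 1.44 for Slc25a10, 1.39 for Slc25a1, 0.981 for Slc25a17 and 0.98 for Slc25a11. The part of RNA from other cell types in the differences between tumour and other groups was not tested.

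The counts of members called stood close to the share of all genes called. A gene was called where edgeR's quasi-likelihood test gave a Benjamini-Hochberg adjusted p under 0.05 over the 16426 genes. Among the 4 groups, 31 of 40 members (77.5%) differed, against 74.8% of all genes. Day 14 over naive, 12 members (30%) rose and 11 (27.5%) fell, against 33.6% and 28.5% of all genes, with a median log2 fold change of -0.01 over members and 0.04 over all genes. Day 4 over naive, 13 rose (32.5%) and 12 fell (30%), against 33.4% and 28.8%, with medians of -0.06 and 0.03. Day 14 over effector, 13 rose (32.5%) and 11 fell (27.5%), against 32.6% and 28.4%, with medians of -0.13 and 0.06. Day 4 over effector, 15 rose (37.5%) and 14 fell (35%), against 32.7% and 29.2%, with medians of -0.09 and 0.06. Members thus rose and fell in similar numbers in the tumour groups, and the differences lay between members.

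Effector over naive, 7 members rose (17.5%) and 5 fell (12.5%), against 14.6% and 10.4% of all genes, with a median of 0.01 for both. With total counts as scaling, the split became 4 higher and 8 lower, and the median over all genes moved to -0.10. The counts were 3 higher and 3 lower without naive library 2, and 4 higher without effector library 3. Day 14 over day 4, 2 members rose (5%) and 3 fell (7.5%), against 7.17% and 4.91%, with medians of 0.02 for members and -0.00 for all genes. The higher count was 1 without day 4 library 1 or 2 or without day 14 library 2 or 3.

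Across the 4 comparisons of a tumour group with naive or effector cells, 11 members (27.5%) were higher in all 4, against 22.7% of all genes. Among them were Slc25a1, Slc25a3, Slc25a4, Slc25a5, Slc25a10, Slc25a11, Slc25a13, Slc25a17, Slc25a34 and Slc25a39, of which Slc25a10, Slc25a34 and Slc25a39 lost 1 or more of these calls without single libraries, as given with each gene. Another 6 (15%) were lower in all 4, against 17.8% of all genes, namely Slc25a23, Slc25a27, Slc25a35, Slc25a45, Slc25a51 and Slc25a53. Calls for 18 members were mixed, and 5 (Slc25a14, Slc25a15, Slc25a16, Slc25a36 and Slc25a44) had no call in any of the 6 comparisons. The comparisons share libraries, so these counts do not stand for separate tests.

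**Figure D1:**
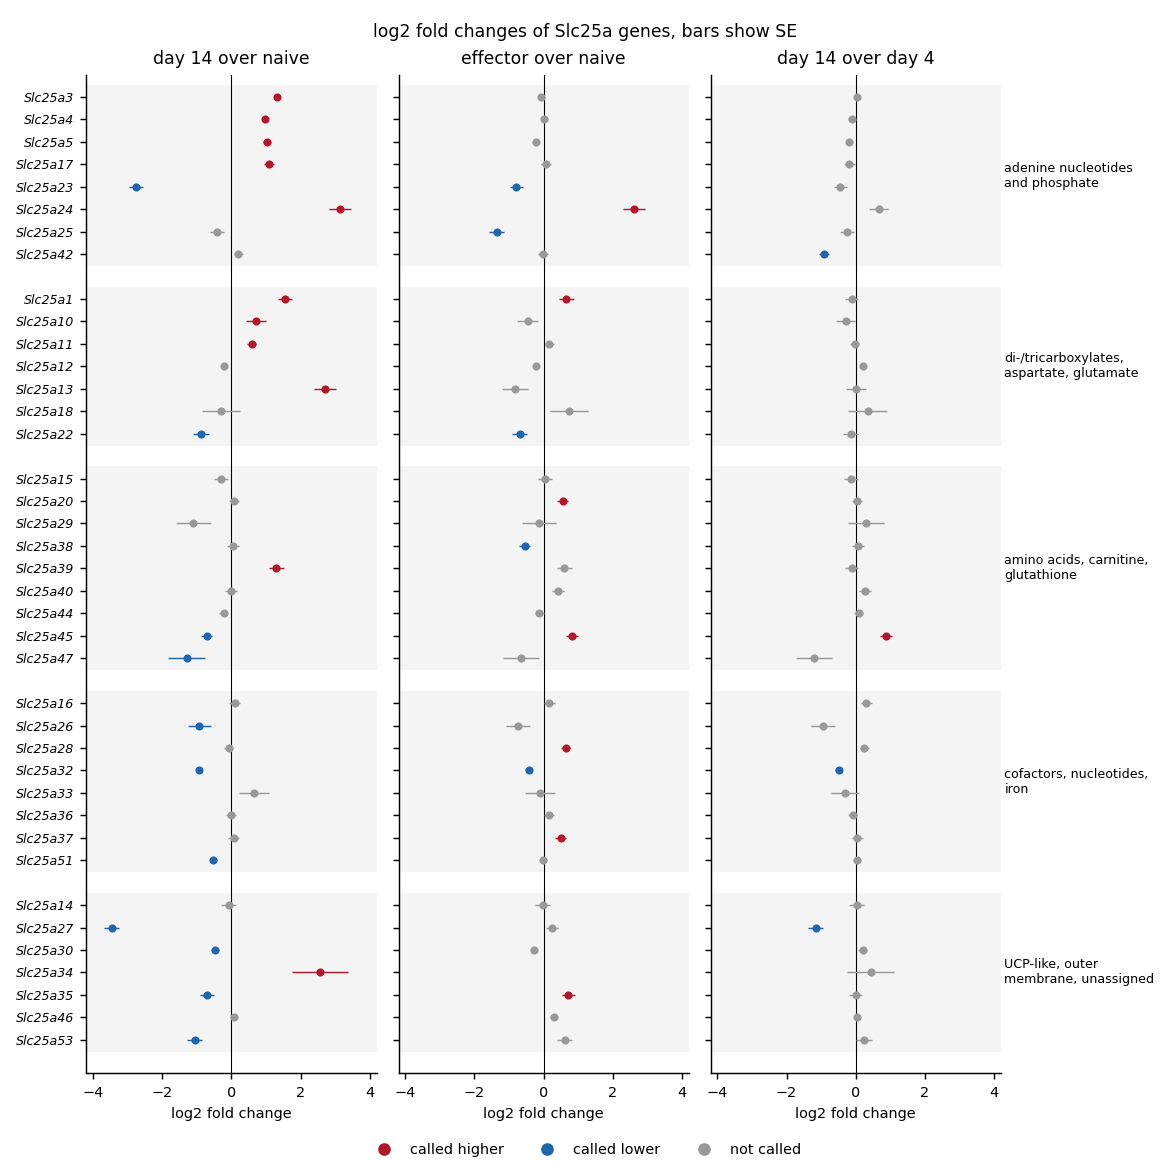
log2 fold changes (x axis, points, with bars for the SE) of 39 tested Slc25a genes (rows, grouped by role) for day 14 over naive, effector over naive and day 14 over day 4, with called genes in red (higher) and blue (lower). At day 14 against naive cells, points lie on both sides of 0 in all 5 role groups, from Slc25a27 at -3.47 to Slc25a24 at 3.13. The effector over naive point of Slc25a34 is left out because the effector libraries had 0 counts of it.

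Of the carriers of adenine nucleotides and phosphate, 11 are in the files and 8 were tested. Day 14 over naive, 5 rose and 1 fell, with a median log2 fold change of 1.0, and day 4 over naive 6 rose and 1 fell, with a median of 1.16. Over all genes, 33.6% rose and 28.5% fell for day 14 over naive with a median of 0.04, and 33.4% and 28.8% for day 4 over naive with a median of 0.03. Effector over naive, 1 rose and 2 fell, with a median of -0.04, against 14.6% and 10.4% of all genes and a median of 0.01. Levels between genes are compared as CPM per kb of exon union, the joined length of all exons of a gene. On that scale Slc25a3, Slc25a5 and Slc25a4 were the 3 most abundant members in every group. Together they made up 67.1% of the summed CPM per kb of the 47 members at day 14 and 68.5% at day 4, against 44.2% in effector and 49.3% in naive cells. Slc25a11 ranked 4 in every group. Exons of all transcripts enter the exon union, which can be longer than the transcripts present, so ranks and shares between genes are approximate. The level of Slc25a5 is uncertain for the reason given below.

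**Figure D2:**
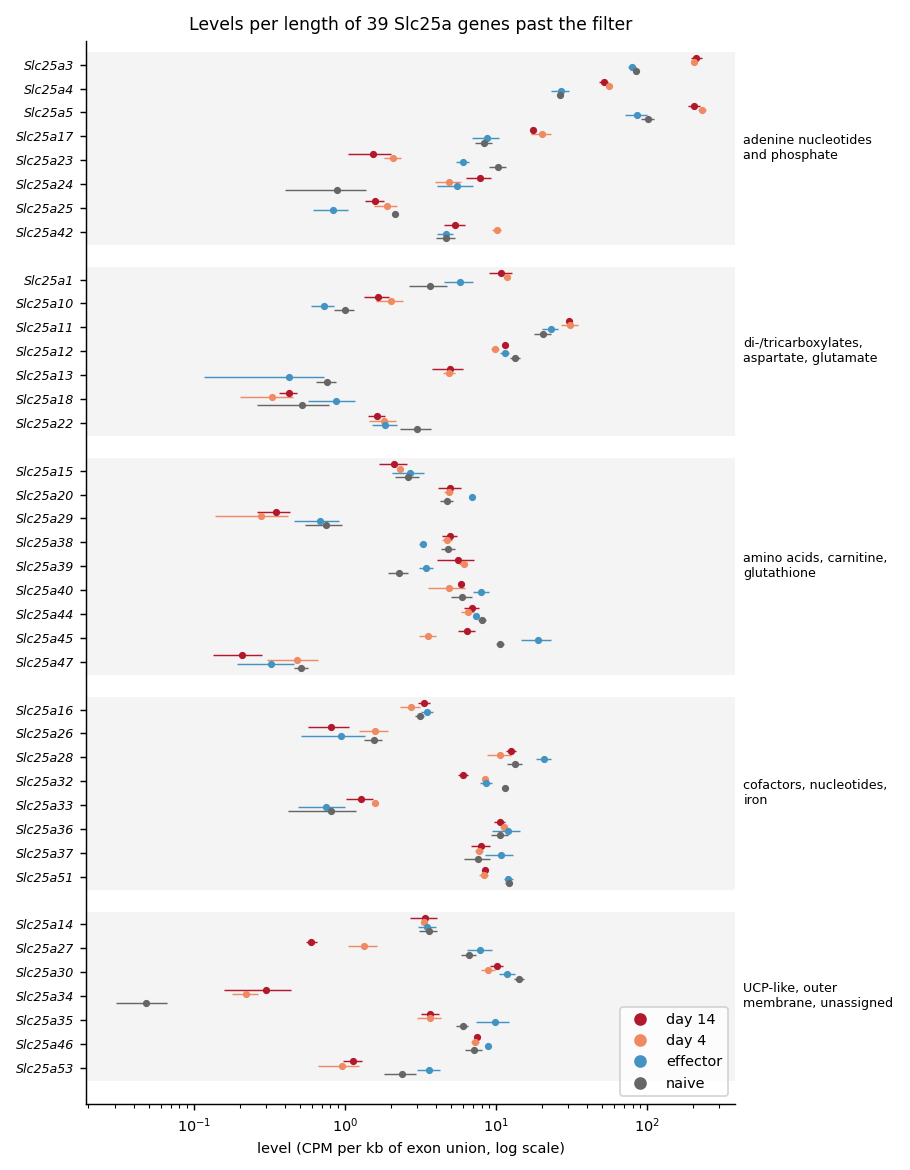
Mean level (x axis, CPM per kb of exon union, log scale, bars show the SD over 3 libraries) of 39 tested Slc25a genes (rows, grouped by role) in day 14, day 4, effector and naive cells. Slc25a3 and Slc25a5 lie at the right in every group, at 211 and 205 CPM per kb at day 14 and at 83.8 and 101 CPM per kb in naive cells. Slc25a34 has no effector point because its counts there were 0.

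Slc25a3 (ENSMUSG00000061904.12, chr10:91116574-91124059, minus strand, GRCm38) encodes the mitochondrial phosphate carrier, which imports the phosphate used by ATP synthase. Its level was 1290, 1120 and 1110 CPM in day 14 libraries and 1180, 1100 and 1140 CPM in day 4 libraries, against 459, 454 and 411 CPM in effector cells and 472, 455 and 468 CPM in naive cells. Every tumour library stood above every effector and naive library. The log2 fold change (± SE throughout) was 1.33 ± 0.08 for day 14 over naive (edgeR adjusted p = 7.35e-10) and 1.41 ± 0.08 for day 14 over effector (edgeR adjusted p = 4.63e-10). Neither effector over naive (-0.08 ± 0.08, edgeR adjusted p = 0.532) nor day 14 over day 4 (0.04 ± 0.08, edgeR adjusted p = 0.839) passed the test.

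The ADP/ATP carriers Slc25a4 (ANT1) and Slc25a5 (ANT2) exchange cytosolic ADP for mitochondrial ATP. Slc25a5 stood at 301, 346 and 364 CPM at day 14 and 364, 374 and 405 CPM at day 4, against 125, 169 and 130 CPM in effector and 149, 167 and 181 CPM in naive cells. Slc25a4 stood at 130, 120 and 114 CPM at day 14 and 129, 130 and 135 CPM at day 4, against 53.3, 70.4 and 64.5 CPM in effector and 60.5, 64.2 and 60.9 CPM in naive cells. For both genes the tumour libraries did not overlap the other libraries, and effector and naive libraries overlapped each other. At day 14 against naive cells, the log2 fold change was 1.02 ± 0.11 for Slc25a5 (edgeR adjusted p = 9.70e-07) and 0.97 ± 0.10 for Slc25a4 (edgeR adjusted p = 4.33e-07). Per kb, Slc25a5 averaged 205 ± 19.8 and Slc25a4 51.5 ± 3.26 CPM at day 14 (SD, n = 3). Slc25a5 has an annotated copy, Slc25a5-ps, that is not protein-coding, and multimapping reads went to no gene, so its level is uncertain. In day 14 library 1 over day 14 library 3 the ratio was 1.16 for Slc25a3, 1.13 for Slc25a4 and 0.826 for Slc25a5, beside 4.01 for the melanoma sum.

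Slc25a23, Slc25a24 and Slc25a25 encode the calcium-regulated carriers that exchange ATP-Mg for phosphate and set the adenine nucleotide content of the matrix. The 3 paralogues went different ways. Slc25a24 (ENSMUSG00000040322.10, chr3:109123149-109168457, plus strand, GRCm38) was at 28.9, 30.1 and 21 CPM at day 14, 13.7, 16.4 and 20.2 CPM at day 4 and 16, 24.7 and 16 CPM in effector cells, against 4.95, 2.23 and 1.91 CPM in naive cells. All libraries of antigen-experienced cells thus stood above the naive ones. Its log2 fold change was 3.13 ± 0.32 for day 14 over naive (edgeR adjusted p = 6.94e-07), 2.46 ± 0.31 for day 4 over naive (edgeR adjusted p = 7.75e-06) and 2.63 ± 0.32 for effector over naive (edgeR adjusted p = 3.16e-05). Day 14 over effector it was 0.50 ± 0.27 and did not pass the test (edgeR adjusted p = 0.13).

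Slc25a23 went the other way. It was at 11, 6.94 and 6.3 CPM at day 14 and 10.9, 12.5 and 9.62 CPM at day 4, against 34.9, 31.5 and 28.9 CPM in effector and 48.3, 61.8 and 54.2 CPM in naive cells. The tumour groups were lowest, the effector group lay between and the naive group was highest, with no overlap between these levels. On the log2 scale the change was -2.77 ± 0.20 for day 14 over naive (edgeR adjusted p = 4.62e-09), -1.98 ± 0.19 for day 14 over effector (edgeR adjusted p = 2.15e-07) and -0.79 ± 0.18 for effector over naive (edgeR adjusted p = 0.00431). Per kb, Slc25a24 averaged 7.77 ± 1.44 and Slc25a23 1.52 ± 0.477 CPM at day 14, whereas in naive cells Slc25a24 averaged 0.884 ± 0.487 and Slc25a23 10.3 ± 1.28 CPM (SD, n = 3 each), so that the order of the 2 paralogues by level was opposite at day 14 and in naive cells.

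Slc25a25 was lowest in effector cells. It was at 13.9, 10.5 and 13 CPM at day 14 and 17, 15.6 and 12 CPM at day 4, against 4.96, 8.34 and 6.34 CPM in effector cells and 16, 17.8 and 16.6 CPM in naive cells. No effector library reached the level of any other library. It fell by 1.36 ± 0.21 on the log2 scale for effector over naive (edgeR adjusted p = 2.09e-04) and was higher by 0.93 ± 0.21 for day 14 over effector (edgeR adjusted p = 0.00124), while day 14 over naive was -0.43 ± 0.20 (edgeR adjusted p = 0.0751).

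The promoters of Slc25a24 and Slc25a23 are shown because these paralogues of like role moved in opposite directions. Windows run from 250 bases before to 50 bases after the RefSeq start of each gene in GRCm38.p6, on the strand of the gene. The Slc25a24 window lies at chr3:109122899-109123198 on the plus strand and the Slc25a23 window at chr17:57059814-57060113 on the minus strand. Capitals would mark a searched motif, and neither window held one of those described below for Slc25a13.
Slc25a24: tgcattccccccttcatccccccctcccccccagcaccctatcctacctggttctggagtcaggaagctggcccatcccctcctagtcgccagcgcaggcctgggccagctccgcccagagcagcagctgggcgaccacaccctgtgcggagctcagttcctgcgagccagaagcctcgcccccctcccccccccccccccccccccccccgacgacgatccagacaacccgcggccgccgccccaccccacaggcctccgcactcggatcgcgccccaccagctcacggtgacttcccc
Slc25a23: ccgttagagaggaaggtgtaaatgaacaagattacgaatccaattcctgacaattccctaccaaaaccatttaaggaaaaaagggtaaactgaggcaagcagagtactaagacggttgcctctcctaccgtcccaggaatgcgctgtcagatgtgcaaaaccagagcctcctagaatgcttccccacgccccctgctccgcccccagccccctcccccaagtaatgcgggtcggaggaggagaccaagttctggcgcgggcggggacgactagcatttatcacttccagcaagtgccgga

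Slc25a42, which carries coenzyme A and adenine nucleotides, stood out at day 4. It was at 37.8, 28.8 and 29.5 CPM at day 14 and 62.6, 55.8 and 63.1 CPM at day 4, against 28.5, 30.6 and 24.2 CPM in effector and 31.4, 23.7 and 28.6 CPM in naive cells. Every day 4 library was above every library of the other groups, which overlapped one another. The log2 fold change was 1.12 ± 0.14 for day 4 over naive (edgeR adjusted p = 4.53e-06) and -0.92 ± 0.14 for day 14 over day 4 (edgeR adjusted p = 3.84e-04). Day 14 over naive was 0.20 ± 0.14 (edgeR adjusted p = 0.244). Slc25a17, the peroxisomal carrier of coenzyme A and related cofactors, was at 50.2, 49 and 51.2 CPM at day 14 and 47.3, 62.2 and 61.3 CPM at day 4, against 30.3, 20.7 and 23.2 CPM in effector and 24.8, 20.2 and 25.8 CPM in naive cells. It rose in the tumour groups without overlap, by 1.09 ± 0.15 on the log2 scale for day 14 over naive (edgeR adjusted p = 1.21e-05).

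**Figure D3:**
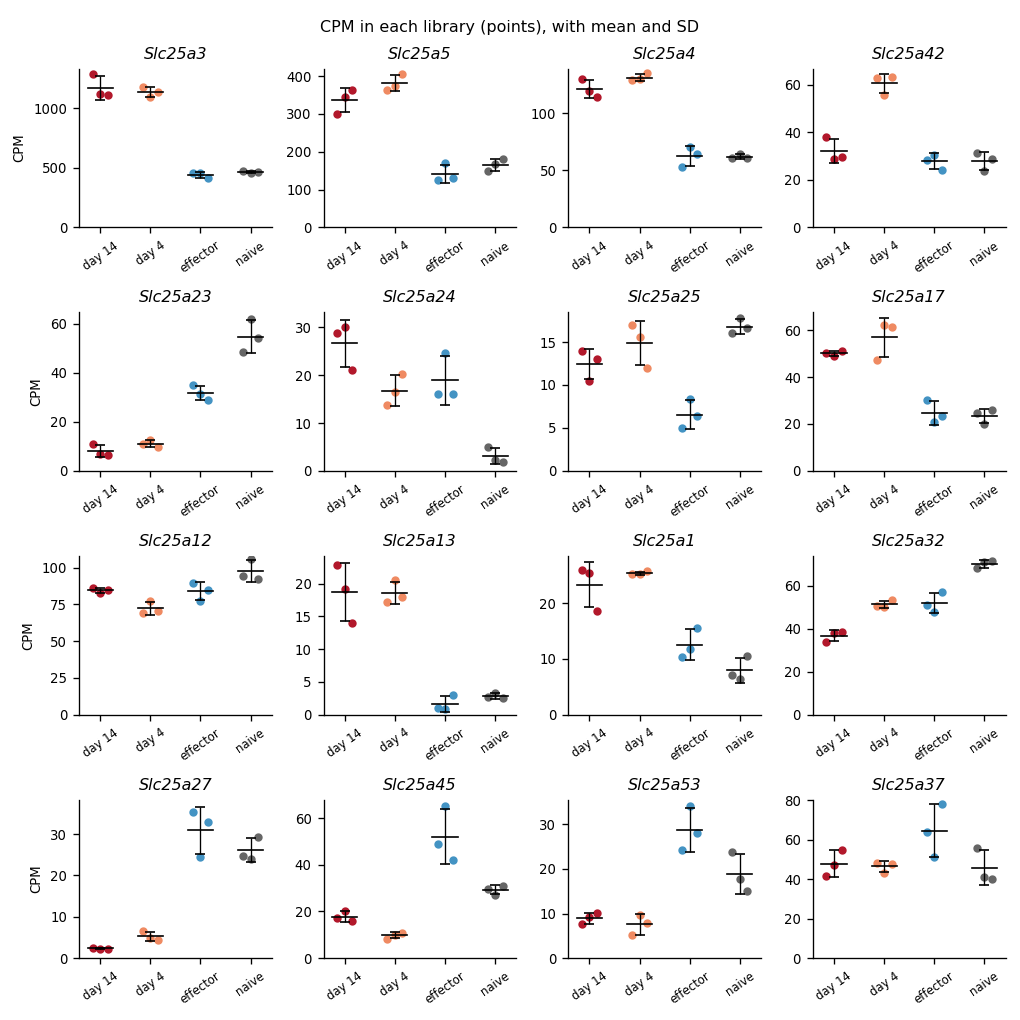
CPM (y axis, from 0) of 16 Slc25a genes in each library (points) of the day 14, day 4, effector and naive groups, with the mean (line) and SD (bar) over 3 libraries. Slc25a42 is highest at day 4, Slc25a25 lowest in effector cells, Slc25a24 lowest in naive cells, and Slc25a13 near 0 in the effector and naive libraries.

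Of the carriers of di- and tricarboxylates, aspartate and glutamate, 8 are in the files and 7 were tested. Day 14 over naive, 4 rose and 1 fell, with a median log2 fold change of 0.58, against 33.6% and 28.5% of all genes and a median of 0.04. Day 14 over effector, 4 rose and none fell, with a median of 0.41, against 32.6% and 28.4% of all genes and a median of 0.06. Effector over naive, 1 rose and 1 fell, with a median of -0.22, against 14.6% and 10.4% of all genes and a median of 0.01.

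The aspartate-glutamate carriers Slc25a12 (aralar) and Slc25a13 (citrin) export aspartate to the cytosol and are part of the malate-aspartate shuttle, which brings reducing equivalents of cytosolic NADH into mitochondria. Slc25a13 (ENSMUSG00000015112.15, chr6:6041218-6217173, minus strand, GRCm38) was at 22.8, 19.2 and 14 CPM at day 14 and 17.2, 20.5 and 18 CPM at day 4, against 1.01, 0.86 and 2.94 CPM in effector and 2.73, 3.35 and 2.53 CPM in naive cells. All 6 tumour libraries were far above the other 6. Its log2 fold change was 2.70 ± 0.32 for day 14 over naive (edgeR adjusted p = 2.51e-06), 2.69 ± 0.32 for day 4 over naive (edgeR adjusted p = 2.48e-06) and 3.53 ± 0.35 for day 14 over effector (edgeR adjusted p = 2.75e-07). Without effector library 3, which had 38 counts where the other effector libraries had 14 and 10, day 14 over effector was 4.34 and day 4 over effector 4.35 in place of 3.52. The ratio of day 14 library 1 to library 3 was 1.63, beside 4.01 for the melanoma sum.

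Slc25a12 did not share this pattern. Its level was 86.1, 82.4 and 84.8 CPM at day 14 and 68.8, 77.4 and 70.6 CPM at day 4, against 89.6, 77.3 and 85.1 CPM in effector and 94.5, 106 and 92.5 CPM in naive cells. The naive libraries were highest and the day 4 libraries tended to be lowest, with overlap between day 4 and effector. Slc25a12 fell by 0.43 ± 0.09 on the log2 scale for day 4 over naive (edgeR adjusted p = 6.76e-04), and day 14 over naive was -0.21 ± 0.09 (edgeR adjusted p = 0.058). Per kb, Slc25a13 averaged 4.91 ± 1.16 and Slc25a12 11.5 ± 0.258 CPM at day 14, against 0.755 ± 0.112 and 13.3 ± 0.988 CPM in naive cells (SD, n = 3 each). Slc25a12 thus remained the more abundant of the pair per length in each of these groups.

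The promoters of this pair are shown because only Slc25a13 rose in the tumour groups. The windows, taken as above, lie at chr6:6217124-6217423 (Slc25a13) and at chr2:71367706-71368005 (Slc25a12), both on the minus strand. Capitals mark the E-box CACGTG in the Slc25a13 window. The Slc25a12 window held none of the motifs searched.
Slc25a13: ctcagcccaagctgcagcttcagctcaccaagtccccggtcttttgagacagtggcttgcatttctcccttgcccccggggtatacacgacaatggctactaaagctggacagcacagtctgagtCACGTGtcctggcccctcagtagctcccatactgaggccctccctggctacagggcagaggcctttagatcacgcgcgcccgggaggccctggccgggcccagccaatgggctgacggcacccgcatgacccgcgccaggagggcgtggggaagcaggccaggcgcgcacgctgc
Slc25a12: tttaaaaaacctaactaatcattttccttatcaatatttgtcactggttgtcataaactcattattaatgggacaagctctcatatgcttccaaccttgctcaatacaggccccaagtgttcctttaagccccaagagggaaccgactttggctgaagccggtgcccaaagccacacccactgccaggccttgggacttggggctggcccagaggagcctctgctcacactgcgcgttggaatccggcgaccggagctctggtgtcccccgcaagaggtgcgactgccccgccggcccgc

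The letters searched on both strands were the E-box CACGTG, the cAMP response element TGACGTCA, an ETS site CCGGAAG and an NRF1 core GCGCATGC, none of which contains another. RefSeq windows were found for 36 of the 47 members, and the window nearest the annotated start was kept for each. The 32851 windows set beside them were all those of the RefSeq set, without such a choice, so the shares are not of like sets. The E-box was in 6 of these (16.7%), namely Slc25a1, Slc25a13, Slc25a14, Slc25a31, Slc25a33 and Slc25a36, against 7.15% of all 32851 windows. The ETS letters were in 7 (19.4%, against 8.86%), namely Slc25a3, Slc25a4, Slc25a17, Slc25a20, Slc25a25, Slc25a38 and Slc25a54. The cAMP response element was in 1 (2.78%, against 1.79%) and the NRF1 core in 2 (5.56%, against 2.71%). These matches are a description of the letters and were not tested.

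Slc25a1, the citrate carrier, exports citrate for cytosolic acetyl coenzyme A and lipid synthesis. Its level was 25.9, 25.4 and 18.6 CPM at day 14 and 25.3, 25.2 and 25.7 CPM at day 4, against 10.3, 11.7 and 15.6 CPM in effector and 7.02, 6.29 and 10.5 CPM in naive cells. The tumour libraries were above all others, and effector and naive libraries overlapped. On the log2 scale the change was 1.55 ± 0.21 for day 14 over naive (edgeR adjusted p = 9.32e-06) and 0.90 ± 0.21 for day 14 over effector (edgeR adjusted p = 0.00133). Effector over naive was 0.66 ± 0.22 (edgeR adjusted p = 0.0337), and this call was lost in 6 of 12 fits that left out a library. It was lost without effector library 3 (0.43, edgeR adjusted p = 0.197), naive library 2 (0.52, edgeR adjusted p = 0.134) or naive library 1 (0.58, edgeR adjusted p = 0.115). It was also lost without day 4 library 2 (0.62, edgeR adjusted p = 0.0573) or 3 (0.62, edgeR adjusted p = 0.0547) or day 14 library 2 (0.63, edgeR adjusted p = 0.053).

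The oxoglutarate carrier Slc25a11 exchanges malate for oxoglutarate in the shuttle. Its level was 63.1, 65.4 and 64.4 CPM at day 14 and 56.1, 67.3 and 73.3 CPM at day 4. Effector cells had 43.8, 54.9 and 46.9 CPM and naive cells 38, 42.4 and 49 CPM. The tumour libraries lay above the rest, though by a smaller margin than for Slc25a1. It rose by 0.58 ± 0.12 on the log2 scale for day 14 over naive (edgeR adjusted p = 7.48e-04) and by 0.41 ± 0.12 for day 14 over effector (edgeR adjusted p = 0.00947). The dicarboxylate carrier Slc25a10, which exchanges malate or succinate for phosphate, was at 6.47, 6 and 4.48 CPM at day 14 and 6.97, 5.47 and 8.35 CPM at day 4, against 2.95, 2.06 and 2.48 CPM in effector and 3.99, 2.95 and 3.37 CPM in naive cells. No tumour library overlapped another group. Its log2 fold change was 1.17 ± 0.29 for day 14 over effector (edgeR adjusted p = 0.00252) and 0.71 ± 0.29 for day 14 over naive (edgeR adjusted p = 0.0396). The call against naive cells was lost without naive library 2 (0.62, edgeR adjusted p = 0.119) or 3 (0.71, edgeR adjusted p = 0.082) and without day 14 library 1 (0.62, edgeR adjusted p = 0.115) or 2 (0.67, edgeR adjusted p = 0.0963).

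Slc25a22, a mitochondrial glutamate carrier, had 8.7 to 11.1 CPM at day 14 and 8.73 to 13.1 CPM at day 4, against 8.77 to 12.8 CPM in effector and 13.2 to 20.7 CPM in naive cells. It fell by 0.88 ± 0.22 on the log2 scale for day 14 over naive (edgeR adjusted p = 0.00253), and day 14 over effector was -0.19 ± 0.22 (edgeR adjusted p = 0.486). The other glutamate carrier, Slc25a18, was near the limit of detection, at 0.706 to 0.924 CPM at day 14 and 0.558 to 1.53 CPM in naive cells.

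Genes that act with these carriers were taken as lists, whose counts for day 14 over naive stand here and below beside the 33.6% of all genes that rose, the 28.5% that fell and the median of 0.04. The lists were chosen with earlier results of these data known, so their counts beside those shares are a description only. Of 10 enzymes of the malate-aspartate and citrate shuttles, 9 rose and none fell for day 14 over naive, with a median log2 fold change of 0.84. Got2, the mitochondrial aspartate aminotransferase, averaged 108 ± 2.97 CPM at day 14 against 34.5 ± 3.92 CPM in naive cells (SD, n = 3 each; log2 fold change 1.64 ± 0.11, edgeR adjusted p = 2.21e-09), and its ratio of day 14 library 1 to library 3 was 0.987. Got1, the cytosolic enzyme, averaged 74.6 ± 4.26 CPM at day 14 against 28 ± 7.94 CPM in naive cells (log2 fold change 1.41 ± 0.16, edgeR adjusted p = 1.04e-06). Me1, the cytosolic malic enzyme, was at 17.4, 8.52 and 3.27 CPM at day 14 and 9.42 to 13.5 CPM at day 4, against at most 0.0719 CPM in effector cells and 0.0765 CPM in naive cells. Its ratio of day 14 library 1 to library 3 was 5.33, beside 4.01 for the melanoma sum, and the part of melanoma RNA in it was not tested.

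Of 24 subunits of the respiratory chain and ATP synthase, 19 rose and none fell for day 14 over naive, with a median of 0.72, and 23 rose and none fell for day 4 over naive, with a median of 0.86, against 33.4% and 28.8% of all genes and a median of 0.03. Effector over naive, 7 rose and none fell, with a median of 0.13, against 14.6% and 10.4% of all genes and a median of 0.01. Cox5a, a subunit of cytochrome c oxidase, averaged 19.2 ± 1.16 CPM at day 14 against 6.89 ± 1.83 CPM in naive cells (SD, n = 3 each; log2 fold change 1.48 ± 0.23, edgeR adjusted p = 3.00e-05). Cycs, cytochrome c, had a log2 fold change of 1.44 ± 0.14 (edgeR adjusted p = 2.29e-07) and Sdhb, a subunit of succinate dehydrogenase, one of 1.14 ± 0.13 (edgeR adjusted p = 1.30e-06). Of 5 genes of porins and the pyruvate carrier, 3 rose and none fell for day 14 over naive: Vdac1 at 1.10 ± 0.09 (edgeR adjusted p = 3.40e-08), Vdac2 at 0.77 ± 0.10 (edgeR adjusted p = 5.66e-06) and Vdac3 at 0.58 ± 0.12 (edgeR adjusted p = 6.67e-04).

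Of 11 mitochondrial biogenesis factors, 2 rose and 5 fell for day 14 over naive, with a median of -0.25. Esrra, a nuclear receptor that drives genes of oxidative metabolism, averaged 9.24 ± 0.3 CPM at day 14 against 25.4 ± 1.59 CPM in naive cells (SD, n = 3 each; log2 fold change -1.46 ± 0.16, edgeR adjusted p = 8.77e-07), and Ppargc1b, its coactivator, 5.37 ± 1.51 CPM against 11.6 ± 2.14 CPM (-1.11 ± 0.25, edgeR adjusted p = 0.00111). Ppargc1a was at 12.6, 8.41 and 2.48 CPM at day 14 against 0.887, 0 and 0 CPM in naive libraries, and its ratio of day 14 library 1 to library 3 was 5.08, again beside 4.01 for the melanoma sum, whose part in it was not tested. Of 11 genes of the TIM22 pathway, which inserts carriers into the inner membrane, 4 rose and 2 fell for day 14 over naive, with a median of 0.32. Those that fell were Timm10b (-1.48 ± 0.34, edgeR adjusted p = 0.00135) and Timm9 (-0.93 ± 0.17, edgeR adjusted p = 2.11e-04), which encode small intermembrane-space chaperones. Another gene of this kind, Timm8a1, had the largest rise (0.91 ± 0.31, edgeR adjusted p = 0.0172).

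Of the carriers of amino acids, carnitine and glutathione, 11 are in the files and 9 were tested. At day 14 against naive cells, 1 rose and 2 fell, with a median of -0.23, against 33.6% and 28.5% of all genes and a median of 0.04. For day 14 over effector, 2 rose and 3 fell, with a median of -0.43, against 32.6% and 28.4% of all genes and a median of 0.06. Slc25a39, which is needed for import of glutathione into mitochondria, was at 20.2, 13.8 and 12.1 CPM at day 14 and 17.9, 16 and 16.4 CPM at day 4, against 10.2, 8.34 and 9.9 CPM in effector and 5.84, 5.58 and 7.35 CPM in naive cells. The tumour libraries were highest and the naive ones lowest, with effector between and no overlap. The log2 fold change was 1.30 ± 0.21 for day 14 over naive (edgeR adjusted p = 6.07e-05) and 0.69 ± 0.21 for day 14 over effector (edgeR adjusted p = 0.00835). Effector over naive was 0.60 ± 0.22 and did not pass the test (edgeR adjusted p = 0.0515). The day 14 over effector call was lost without day 14 library 1 (0.49, edgeR adjusted p = 0.0522), and the ratio of that library to day 14 library 3 was 1.67, beside 4.01 for the melanoma sum. Its paralogue Slc25a40 was at 47.1 to 51.3 CPM at day 14 and 29.8 to 51.9 CPM at day 4, against 57.6 to 71.9 CPM in effector and 42.8 to 58.7 CPM in naive cells, and day 14 over naive was -0.02 ± 0.17 (edgeR adjusted p = 0.914).

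Slc25a45 was at 17, 20.4 and 15.9 CPM at day 14 and 8.36, 9.97 and 10.9 CPM at day 4, against 48.7, 65.1 and 42.1 CPM in effector and 29.6, 27.1 and 30.9 CPM in naive cells. The 4 groups did not overlap: effector cells were highest, followed by naive, day 14 and day 4 cells. Its log2 fold change was -0.72 ± 0.17 for day 14 over naive (edgeR adjusted p = 0.00145), -1.58 ± 0.17 for day 4 over naive (edgeR adjusted p = 8.04e-07), 0.83 ± 0.17 for effector over naive (edgeR adjusted p = 0.00155) and 0.87 ± 0.17 for day 14 over day 4 (edgeR adjusted p = 0.00314).

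Slc25a20, the carnitine-acylcarnitine carrier that brings fatty acids to oxidation, was at 28.1, 24.7 and 19.6 CPM at day 14 and 21.9, 23.7 and 24.9 CPM at day 4, against 32, 34.1 and 34 CPM in effector and 24.3, 20.2 and 23.7 CPM in naive cells. Effector libraries were above all others, and the tumour groups overlapped naive cells. Effector over naive was 0.55 ± 0.15 (edgeR adjusted p = 0.0112), a call lost without naive library 2 (0.48, edgeR adjusted p = 0.0511), and day 14 over effector was -0.47 ± 0.15 (edgeR adjusted p = 0.0107), lost without day 14 library 3 (-0.34, edgeR adjusted p = 0.0642). Of 6 genes of the carnitine system, 2 rose and 1 fell for day 14 over naive, with a median of 0.05. Cpt1a, the rate-limiting acyltransferase of the outer membrane, was the one that fell (-0.47 ± 0.13, edgeR adjusted p = 0.00655), and Crat, carnitine acetyltransferase, rose (1.87 ± 0.30, edgeR adjusted p = 4.00e-05). The other one that rose was Cpt1c, a relative of Cpt1a known mainly from the brain. Cpt1c was at 2.05, 2.06 and 0.303 CPM at day 14 and 1.61, 1.74 and 1.2 CPM at day 4, against 0, 0.086 and 0.0774 CPM in effector and 0.296, 0 and 0 CPM in naive cells. The difference between day 14 and naive passed the test (edgeR adjusted p = 0.00383), and no fold change is given because 2 naive libraries were at 0. The ratio of day 14 library 1 to library 3 was 6.76 for Cpt1c and 1.47 for Crat, beside 4.01 for the melanoma sum, and the part of melanoma RNA in them was not tested.

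Slc25a38, the glycine carrier that feeds haem synthesis, was at 14.1, 14.8 and 11.7 CPM at day 14 and 14, 12.1 and 13 CPM at day 4, against 9.42, 8.43 and 9.13 CPM in effector and 11.6, 14.2 and 13.8 CPM in naive cells. Effector libraries were below all others. Day 14 over effector was 0.59 ± 0.17 (edgeR adjusted p = 0.00756) and effector over naive -0.55 ± 0.17 (edgeR adjusted p = 0.0291). The effector over naive call was lost without naive library 2 (-0.49, edgeR adjusted p = 0.104) or 3 (-0.51, edgeR adjusted p = 0.085) and without effector library 2 (-0.50, edgeR adjusted p = 0.0921) or 3 (-0.59, edgeR adjusted p = 0.0521). The ornithine carrier Slc25a15 and the branched-chain amino acid carrier Slc25a44 had no call in any comparison, with 9.99 to 18.4 CPM and 20.7 to 30.5 CPM over the 12 libraries. Slc25a29, a carrier of basic amino acids, and Slc25a47 averaged 0.905 ± 0.226 and 0.618 ± 0.221 CPM at day 14 and 1.95 ± 0.545 and 1.53 ± 0.162 CPM in naive cells (SD, n = 3 each).

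Of the carriers of cofactors, nucleotides and iron, 9 are in the files and all 9 were tested. Day 14 over naive, 1 rose and 3 fell, with a median of -0.01, against 33.6% and 28.5% of all genes and a median of 0.04. Slc25a32, the mitochondrial folate carrier, also linked to FAD, was at 33.7, 38 and 38.3 CPM at day 14 and 50.7, 50.2 and 53.3 CPM at day 4, against 51, 47.9 and 57.1 CPM in effector and 68.1, 70.9 and 71.5 CPM in naive cells. Naive libraries were highest, day 4 and effector libraries overlapped in the middle, and day 14 libraries were lowest. The log2 fold change was -0.94 ± 0.10 for day 14 over naive (edgeR adjusted p = 6.34e-07), -0.43 ± 0.10 for effector over naive (edgeR adjusted p = 0.00449) and -0.49 ± 0.10 for day 14 over day 4 (edgeR adjusted p = 0.00379). For day 14 over naive the folate enzymes did not share this direction: of 7 one-carbon enzymes, 5 rose and none fell, with a median of 0.61. Effector over naive, none of the 7 rose and 3 fell (median -0.50), against 14.6% and 10.4% of all genes (median 0.01). Day 14 over day 4, none rose and 2 fell (median -0.36), against 7.17% and 4.91% of all genes (median -0.00). Mthfd2, a mitochondrial enzyme of that pathway, averaged 36.6 ± 1.05 CPM at day 14 against 12.4 ± 3.57 CPM in naive cells (SD, n = 3 each; log2 fold change 1.57 ± 0.18, edgeR adjusted p = 1.69e-06). Mthfd1 rose by 0.93 ± 0.14 on the same scale (edgeR adjusted p = 2.17e-05). Aldh1l2, a mitochondrial formyltetrahydrofolate dehydrogenase, was at 12.5, 6.29 and 2.3 CPM at day 14 and 5.79, 8.77 and 3.88 CPM at day 4, against 0.359, 0.258 and 0.155 CPM in effector and 0.517, 0.398 and 0.995 CPM in naive cells. Tumour libraries were above all others, with a wide spread among the day 14 ones. The mean was 7.02 ± 5.13 CPM at day 14 against 0.637 ± 0.316 CPM in naive cells (SD, n = 3 each; log2 fold change 3.44 ± 0.59, edgeR adjusted p = 1.04e-04). Its ratio of day 14 library 1 to library 3 was 5.42, beside 4.01 for the melanoma sum, and the part of melanoma RNA in it was not tested.

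The mitoferrins Slc25a37 and Slc25a28 import iron into mitochondria. Slc25a37 was at 41.4, 47 and 54.9 CPM at day 14 and 48.4, 43.3 and 47.6 CPM at day 4, against 63.8, 51.4 and 78.2 CPM in effector and 56, 41.2 and 40 CPM in naive cells. The groups overlapped, except that every effector library was above every day 4 library. Its calls for effector over naive (0.50 ± 0.16, edgeR adjusted p = 0.0321) and day 14 over effector (-0.43 ± 0.16, edgeR adjusted p = 0.0266) rested on single libraries. Without effector library 3 they were 0.30 (edgeR adjusted p = 0.213) and -0.23 (edgeR adjusted p = 0.231). Of the 12 fits that left out a library, 7 lost the effector over naive call, the other ones being those without effector library 1 (edgeR adjusted p = 0.0886), naive library 2 (0.121) or 3 (0.123), day 4 library 2 (0.0573) or 3 (0.059), or day 14 library 2 (0.0599). The day 14 over effector call was lost in 6, besides effector library 3 without effector library 1 (edgeR adjusted p = 0.0753), day 14 library 1 (0.157) or 2 (0.0933), or day 4 library 2 (0.0503) or 3 (0.0523). Slc25a28 had 44.1 to 51.2 CPM at day 14 and 32.9 to 46.9 CPM at day 4, against 68 to 84.3 CPM in effector and 44.4 to 55.6 CPM in naive cells, and rose by 0.64 ± 0.13 on the log2 scale for effector over naive (edgeR adjusted p = 0.00226). The sum of 7 erythroid markers, 4 of them tested, was 3.7 to 15.8 CPM at day 14 and 1.56 to 11 CPM at day 4, against 1.89 to 2.66 CPM in effector and 6.43 to 30.9 CPM in naive cells, and its part in the levels of Slc25a37 and Slc25a38 was not tested. Of 11 genes of mitochondrial iron, haem and iron-sulfur handling, 4 rose and none fell for day 14 over naive, with a median of 0.48. Tfrc, the transferrin receptor, had a log2 fold change of 2.04 ± 0.10 (edgeR adjusted p = 1.07e-10).

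Slc25a51, which carries NAD into mitochondria, had 45 to 48.3 CPM at day 14 and 41.6 to 47.7 CPM at day 4, against 63.4 to 71.6 CPM in effector and 63 to 70 CPM in naive cells. It fell by 0.53 ± 0.10 on the log2 scale for day 14 over naive (edgeR adjusted p = 1.99e-04) and by 0.52 ± 0.10 for day 14 over effector (edgeR adjusted p = 2.47e-04). The pyrimidine nucleotide carrier Slc25a33 was at 2.05, 2.18 and 2.97 CPM at day 14 and 3.08, 3.06 and 2.81 CPM at day 4, against 0.863, 1.81 and 1.55 CPM in effector and 0.887, 1.35 and 2.3 CPM in naive cells. Day 14 and naive libraries overlapped, and day 14 over naive was 0.66 ± 0.43 (edgeR adjusted p = 0.188). Exons of Slc25a33 share 14.9% of their bases with the antisense gene Gm13068, so the level of Slc25a33 is uncertain. Slc25a36, the other pyrimidine nucleotide carrier, had no call in any comparison, with 87.7 to 136 CPM over the 12 libraries, and neither had Slc25a16, with 11.8 to 18.2 CPM. The S-adenosylmethionine carrier Slc25a26 had 2.57 to 4.82 CPM at day 14 and 6.58 to 8.57 CPM in naive cells (log2 fold change -0.93 ± 0.34, edgeR adjusted p = 0.0258), a call lost without day 14 library 1 (-0.70, edgeR adjusted p = 0.109) or naive library 1 (-0.81, edgeR adjusted p = 0.0881) or 2 (-0.94, edgeR adjusted p = 0.0503).

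Of the carriers like uncoupling proteins, those of the outer membrane and those without an assigned substrate, 8 are in the files and 7 were tested. At day 14 against naive cells, 1 rose and 4 fell, with a median of -0.48, against 33.6% and 28.5% of all genes and a median of 0.04. Slc25a27 (UCP4; ENSMUSG00000023912.10, chr17:43641891-43667214, minus strand, GRCm38), related to the uncoupling proteins, was at 2.57, 2.23 and 2.24 CPM at day 14 and 6.6, 4.81 and 4.41 CPM at day 4, against 35.3, 24.4 and 33 CPM in effector and 24.8, 24.1 and 29.4 CPM in naive cells. Day 14 libraries were lowest and day 4 libraries next, both clear of effector and naive libraries, which overlapped. Its log2 fold change was -3.47 ± 0.21 for day 14 over naive (edgeR adjusted p = 8.81e-10), -2.31 ± 0.20 for day 4 over naive (edgeR adjusted p = 4.42e-08) and -1.16 ± 0.22 for day 14 over day 4 (edgeR adjusted p = 0.00185). Effector over naive was 0.25 ± 0.18 (edgeR adjusted p = 0.354). Day 14 library 1 over library 3 gave 1.15, beside 4.01 for the melanoma sum.

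Slc25a53 was at 7.66, 9.11 and 10.1 CPM at day 14 and 5.13, 9.61 and 7.88 CPM at day 4, against 24.2, 34.1 and 28 CPM in effector and 23.8, 17.7 and 15.1 CPM in naive cells. Tumour libraries were below all others. On the log2 scale the change was -1.07 ± 0.23 for day 14 over naive (edgeR adjusted p = 7.11e-04) and -1.68 ± 0.23 for day 14 over effector (edgeR adjusted p = 1.02e-05). Slc25a35 was at 13.1, 15.5 and 11.9 CPM at day 14 and 10.6, 14.8 and 14.9 CPM at day 4, against 32.8, 29.2 and 46 CPM in effector and 23.4, 19.8 and 23 CPM in naive cells. Here too the tumour libraries were lowest and effector libraries highest, without overlap. Day 14 over effector was -1.42 ± 0.19 (edgeR adjusted p = 8.53e-06) and day 14 over naive -0.71 ± 0.19 (edgeR adjusted p = 0.00412). Its exons share 31.3% of their bases with Rangrf on the other strand, so its level is uncertain.

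Slc25a34 was scarce, with 39 counts at day 14 and 27 at day 4, against 0 in effector and 5 in naive cells, summed over the libraries of a group. Against a floor of 3 counts over the effector group it was at least 10.3-fold higher at day 14 and at least 7.65-fold higher at day 4. Day 14 over naive was 2.56 ± 0.82 (edgeR adjusted p = 0.0137), a call lost without naive library 1 (2.29, edgeR adjusted p = 0.0608) or day 14 library 2 (2.17, edgeR adjusted p = 0.0712). Day 4 over naive was 2.13 ± 0.83 (edgeR adjusted p = 0.0372), and this call was lost in 8 of the 12 fits, namely without any 1 of the naive or day 4 libraries or without day 14 library 1 or 2 (1.87 to 2.32, edgeR adjusted p = 0.0519 to 0.122). Slc25a30, a kidney-enriched relative of the uncoupling proteins, had 41.5 to 50.3 CPM at day 14 and 36.6 to 45 CPM at day 4, against 49.2 to 61.3 CPM in effector and 59.8 to 69.6 CPM in naive cells, and fell by 0.48 ± 0.12 on the log2 scale for day 14 over naive (edgeR adjusted p = 0.00224). The outer membrane protein Slc25a46, which acts in mitochondrial fusion and fission, averaged 40.6 ± 1.93 CPM at day 14 and 38.8 ± 4.91 CPM in naive cells (SD, n = 3 each), with day 14 over naive at 0.07 ± 0.11 (edgeR adjusted p = 0.627). Slc25a14 (UCP5) had no call in any comparison, with 6.54 to 9.8 CPM over the 12 libraries.

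Carriers of the same superfamily under other symbols were Ucp1, Ucp2, Ucp3, Mtch1 and Mtch2, of which 3 were tested. All 3 rose for day 14 over naive, with a median of 0.65. Ucp2, the uncoupling protein of immune cells, was at 713, 623 and 698 CPM at day 14 and 495, 616 and 728 CPM at day 4, against 473, 458 and 526 CPM in effector and 396, 435 and 467 CPM in naive cells. Day 14 libraries were above all effector and naive libraries, while day 4 libraries overlapped the effector ones. Its log2 fold change was 0.65 ± 0.12 for day 14 over naive (edgeR adjusted p = 1.56e-04). Mtch1, an outer membrane protein, averaged 39.5 ± 2.31 CPM at day 14 and 20.7 ± 3.34 CPM in naive cells (SD, n = 3 each; log2 fold change 0.93 ± 0.15, edgeR adjusted p = 3.94e-05). Mtch2, an outer membrane insertase, averaged 51.9 ± 4.55 CPM at day 14 and 39 ± 4.34 CPM in naive cells (SD, n = 3 each; log2 fold change 0.41 ± 0.12, edgeR adjusted p = 0.00584). Ucp1 had 0 counts in all 12 libraries and Ucp3 at most 0.587 CPM.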

How the data were processed

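Poly(A) RNA of 12 libraries, 3 in each of 4 groups, was sequenced; groups follow the sample titles. The deposited values are whole-number counts of reads per gene, made by the authors; fastp 0.19.6, STAR 2.6.1b and build GRCm38 are named in the submitters' processing notes. The counts have the layout of the per-gene read counts of STAR, and the annotation used for them is not given in the sources used here. The unstranded counts were used, because about equal numbers fell on either strand. Strand thus does not tell a gene from an antisense partner where exons overlap. Reads set apart as ambiguous were counted for no gene, so levels are uncertain there: 14 members share exon bases with another gene (at most 8.92% outside Slc25a33 and Slc25a35). Library sizes exclude the 4 summary lines: 20.7% to 30.2% of reads lay outside genes, 5.9% to 7.29% mapped to several places, 3.22% to 3.81% were ambiguous and 4.9% to 5.52% did not map. Of 55401 identifiers, 55141 matched GENCODE M21 without the version and 260 did not. Multimapping reads were not counted, which makes near-identical copies uncertain.

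After filterByExpr, edgeR 4.0.16 (R 4.3.3) computed TMM factors, and 1 quasi-likelihood fit with robust dispersion took all 12 libraries (8 residual degrees of freedom). It gave 6 comparisons between groups and 1 test among the 4 groups. The SE is the size of the log2 fold change divided by the square root of F. The script was tested on simulated data. DESeq2 1.42.0 served as an alternative. One member is counted but its values are not reported here, nor drawn. Any other member may be named; all library values are given for members called among the 4 groups whose mean log2 CPM was 2 or more and that had a called log2 fold change of at least 1, and for a panel of further members. Of the other lists, up to 3 called genes with the largest change are named, besides Ucp2 and Mtch2. Members and lists were chosen with earlier results of these data known. Promoters are RefSeq windows of GRCm38.p6. No molecular identifiers are described, so counting floors (3 counts over a group) cover counting error only. Replicate libraries of a group differed beyond sampling noise (chi-square per degree of freedom 9.87 to 26.8), so no library was counted with another.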

Additional observations from a re-analysis of the deposited data

How the results depend on the processing

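Of 118 member calls over the 6 comparisons, 93 held under all alternatives tried (scaling, no filter on low counts, DESeq2, a replicate block, the compared groups alone and the 12 fits that left out a library) and none reversed. Calls lost were 3 with DESeq2 size factors, 8 with total counts as scaling, 11 without a filter, 4 with the DESeq2 test, 6 of 118 with the replicate block, 6 of 114 with the compared groups alone and 6 to 14 without 1 library. Total counts as scaling gave 4 members higher and 8 lower for effector over naive, in place of 7 and 5, and 1544 and 2508 among all genes in place of 2395 and 1703. Leaving out 1 library gave 3 to 9 higher and 3 to 6 lower for effector over naive, and 1 to 2 higher for day 14 over day 4. Libraries with the same replicate number did not deviate together (18 correlations of deviations from the group means, -0.0884 to 0.102, against -0.077 to 0.0878 for 36 pairs with different numbers). The labels do not say whether the numbers pair the samples, and correlations around means of 3 libraries cannot exclude it. With the replicate block 7 members were higher and 5 lower for effector over naive. Depth limits the members of low level: Slc25a18, Slc25a29, Slc25a34 and Slc25a47 had 71 to 222 counts over all libraries, and their calls were lost without single libraries or without the filter, except those of Slc25a34 for day 4 and day 14 over effector, which were lost under none of the alternatives that gave a test.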
